A study of Mus musculus with 2 samples.

Results

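The glucocorticoid receptor gene Nr3c1 and 8 genes of glucocorticoid action in liver (Zbtb16, Fkbp5, Tsc22d3, Sgk1, Klf9, Dusp1, Errfi1 and Hsd11b1) were followed across 4 mouse liver RNAs. They were found by symbol or synonym among the non-control probes of both arrays, which gave 9 of 22803 named genes and 11 of 39429 probes. The genes were chosen by their treatment ratios and levels on these arrays, already known from earlier work on the same data, so every value below is a description and carries no test.

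The 4 RNAs came from livers of C57BL/6 mice, either wild-type or transgenic for AID, the activation-induced cytidine deaminase that edits antibody genes in B cells. Within each genotype, a liver exposed to thioacetamide, a hepatotoxin given for 6 months with the drinking water, was labelled with Cy5 and compared on 1 array with an untreated liver labelled with Cy3. Each genotype had a single array and the dyes were not swapped, so a dye effect and a treatment effect cannot be told apart within an array. The labels do not state the promoter of the transgene, the age or sex of the mice, or how many animals stand behind each RNA. The comparisons ask how the RNA levels of the receptor and its targets differ between exposed and unexposed liver, and whether that differs between genotypes.

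The glucocorticoid receptor is a nuclear receptor that waits in the cytoplasm in a complex with the HSP90 chaperone, binds corticosterone, the main glucocorticoid of mice, and then moves to the nucleus, where it binds DNA as a dimer. In hepatocytes it turns on genes of gluconeogenesis and amino acid catabolism, and in many cells it lowers the transcription of inflammatory genes. Among its widely used targets are Fkbp5, whose product lowers the receptor's affinity for hormone, and Tsc22d3, which encodes the anti-inflammatory leucine zipper protein GILZ.

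Regions around some annotated starts of these genes are shown because the genes had ratios of different sign and size on the arrays. They let the reader see which receptor, cAMP and clock motifs the starts shown carry. RefSeq windows of GRCm38.p6, each with 250 bases before and 50 bases after a start, were at hand for 7 of the genes, 15 windows in all. They were searched on both strands for the receptor's monomer site AGAACA, its full palindrome (AGAACA, any 3 bases, and the reverse complement of AGAACA), the palindrome's core ACANNNTGT, the cAMP response element TGACGTCA with its short form TGACG, and the E-box CACGTG, which clock factors bind. The palindrome contains the core and a pair of monomer sites, and the cAMP response element contains its short form on either strand. Sgk1 had 6 windows, Tsc22d3 3 and Errfi1 2. Every window shown holds a match, so those shown do not stand for all windows. The Hsd11b1 window, the other Errfi1 window and some windows of Sgk1 and Tsc22d3 held no match and are not shown. Other windows of Sgk1 and Tsc22d3 and the Klf9 window held a monomer site, core or TGACG match, and are not shown either. The sequences run 5′ to 3′ on the strand of the gene, with matches in capitals.
Sgk1, chr10:21993640-21993939, plus strand: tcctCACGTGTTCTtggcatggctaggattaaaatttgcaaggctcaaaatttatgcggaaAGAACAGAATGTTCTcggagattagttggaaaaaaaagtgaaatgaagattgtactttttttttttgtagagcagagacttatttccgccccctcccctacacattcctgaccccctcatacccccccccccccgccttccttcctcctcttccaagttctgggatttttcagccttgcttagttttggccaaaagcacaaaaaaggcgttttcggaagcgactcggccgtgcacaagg
Dusp1, chr17:26508423-26508722, minus strand: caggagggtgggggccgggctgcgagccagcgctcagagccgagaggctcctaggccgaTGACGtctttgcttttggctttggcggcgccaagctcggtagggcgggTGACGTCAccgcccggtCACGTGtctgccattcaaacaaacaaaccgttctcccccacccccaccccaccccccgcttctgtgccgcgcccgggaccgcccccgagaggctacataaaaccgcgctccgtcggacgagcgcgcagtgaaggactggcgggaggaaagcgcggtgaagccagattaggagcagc
Errfi1, chr4:150854820-150855119, plus strand: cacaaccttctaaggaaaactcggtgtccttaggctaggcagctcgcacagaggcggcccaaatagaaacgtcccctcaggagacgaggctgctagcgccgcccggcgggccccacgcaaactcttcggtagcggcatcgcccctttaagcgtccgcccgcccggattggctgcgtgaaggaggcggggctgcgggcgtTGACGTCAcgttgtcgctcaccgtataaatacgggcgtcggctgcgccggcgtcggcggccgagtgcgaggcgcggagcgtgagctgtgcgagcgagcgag
Fkbp5, chr17:28486100-28486399, minus strand: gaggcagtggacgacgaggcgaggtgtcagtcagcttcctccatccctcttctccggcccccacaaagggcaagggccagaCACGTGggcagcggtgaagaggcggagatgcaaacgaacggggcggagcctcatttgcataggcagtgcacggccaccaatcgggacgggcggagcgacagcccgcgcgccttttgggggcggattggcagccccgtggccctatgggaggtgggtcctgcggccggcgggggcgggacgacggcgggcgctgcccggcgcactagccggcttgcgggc
Tsc22d3, chrX:140600473-140600772, minus strand: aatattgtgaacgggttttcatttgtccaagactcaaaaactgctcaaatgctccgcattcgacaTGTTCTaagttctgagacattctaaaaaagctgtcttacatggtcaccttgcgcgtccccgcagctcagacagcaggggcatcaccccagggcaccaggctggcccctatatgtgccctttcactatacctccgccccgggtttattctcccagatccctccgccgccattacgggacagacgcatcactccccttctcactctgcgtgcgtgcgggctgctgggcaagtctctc

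The Sgk1 window holds the full palindrome as AGAACAGAATGTTCT. It begins 189 bases before the annotated start on which that window is set and 965 bases before the next annotated Sgk1 start. That motif is in 3 of 32851 windows of the table (0.01%). At the left end of the same window the E-box CACGTG overlaps a monomer site on the opposite strand, so that both read as 1 run of capitals. The core was in 2 of the 15 windows, both of Sgk1, against 6.85% of all windows, and the monomer site in 4 against 18.97%, 1 of them the Tsc22d3 window shown. The cAMP response element was in 1 Dusp1 and 1 Errfi1 window, against 1.79% of all windows. The E-box was in the windows of Dusp1, Fkbp5 and Sgk1, against 7.15%. A match is a run of letters and was not tested as a binding site. A window without one shows only that the letters are not in those 300 bases, and receptor sites are known to lie also far from gene starts.

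Of 43020 non-control spots, 53.9% to 56.0% were well above background in the untreated and 68.4% to 68.8% in the treated RNAs. All 10 hepatocyte markers, among them Alb and Ttr, were well above background in all 4 RNAs. The treated wild-type RNA stood apart by sex-linked transcripts. Its Ddx3y, a Y-linked RNA helicase gene, was at least 17.6-fold lower than in untreated wild-type liver, while the AID transgenic array had a log2 ratio of -0.11 ± 0.21 for it. Xist, the RNA of the inactive X chromosome, was at least 5.96-fold higher in treated than in untreated wild-type liver and was not well above background in either AID transgenic RNA. Liver genes known to differ between the sexes moved with it: 10 of 13 male-biased genes were 2-fold lower and 12 of 14 female-biased genes 2-fold higher in treated wild-type liver. Over all genes 1.64% were 2-fold lower and 1.86% higher there, and 0.946% and 1.21% on the AID transgenic array. On the AID transgenic array 5 of 13 male-biased genes were lower and 1 of 11 female-biased genes was higher. The wild-type treatment ratio and every difference built on it therefore carry this difference too. Its part in the results below was not tested, and genotype, sex-linked signal and treatment cannot be told apart in the treated wild-type RNA.

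Levels are given as normalised log2 intensities, which can be compared between RNAs for 1 probe and not between probes. A treatment ratio is the log2 of treated over untreated. Errors after ± rest on estimates by the scanner software, which are technical and no spread between mice. For a treatment ratio the estimate is that of a spot's ratio. For levels compared between genotypes it is the software's signal error in the channel compared, on each array. The error of a difference between arrays is the root of the sum of both squared errors. A gene was counted as higher or lower at 2-fold, a log2 value of 1 in size. With 1 array per genotype there is no replicate check and no p-value.

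The receptor itself differed little between the 4 RNAs. The brighter Nr3c1 probe had log2 levels of 11.75 in untreated and 11.84 in treated wild-type liver, and of 11.78 and 11.74 in untreated and treated AID transgenic liver. The dimmer probe had 8.67 and 8.96 in wild-type and 8.62 and 8.92 in AID transgenic liver. The dimmer probe was the higher in treated RNA on both arrays, while the brighter one was within 0.1 of its untreated level. As the mean of both probes, the treatment ratio of Nr3c1 was 0.19 ± 0.14 in wild-type and 0.13 ± 0.14 in AID transgenic liver, a difference of -0.06 ± 0.20. This difference is smaller than the error of the spots. With median centring of each array in place of loess, the ratios were 0.83 and 0.75, where the median of all genes was 0.35 and 0.34. Ratios given below for that setting are to be read beside those medians.

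Hsd11b1 encodes the enzyme of the endoplasmic reticulum that regenerates active glucocorticoid from its inert keto form, and liver is one of its main sites. Its probe lies on 10 spots of each array. The log2 level was 14.62 in untreated and 13.91 in treated wild-type liver, and 14.29 and 13.87 in untreated and treated AID transgenic liver. The untreated wild-type RNA was the highest, and both treated RNAs lay below both untreated ones. The treatment ratio was -0.71 in wild-type and -0.43 in AID transgenic liver, each with an SD of 0.014 over the 10 spots and a scanner error of 0.21. With median centring of each array in place of loess, these ratios turned to 0.07 and 0.31. Relative to the median of all genes in that setting they were -0.28 and -0.03. The untreated levels differed by -0.33 ± 0.20 between AID transgenic and wild-type liver, and the treated levels by -0.05 ± 0.20.

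**Figure D1:**
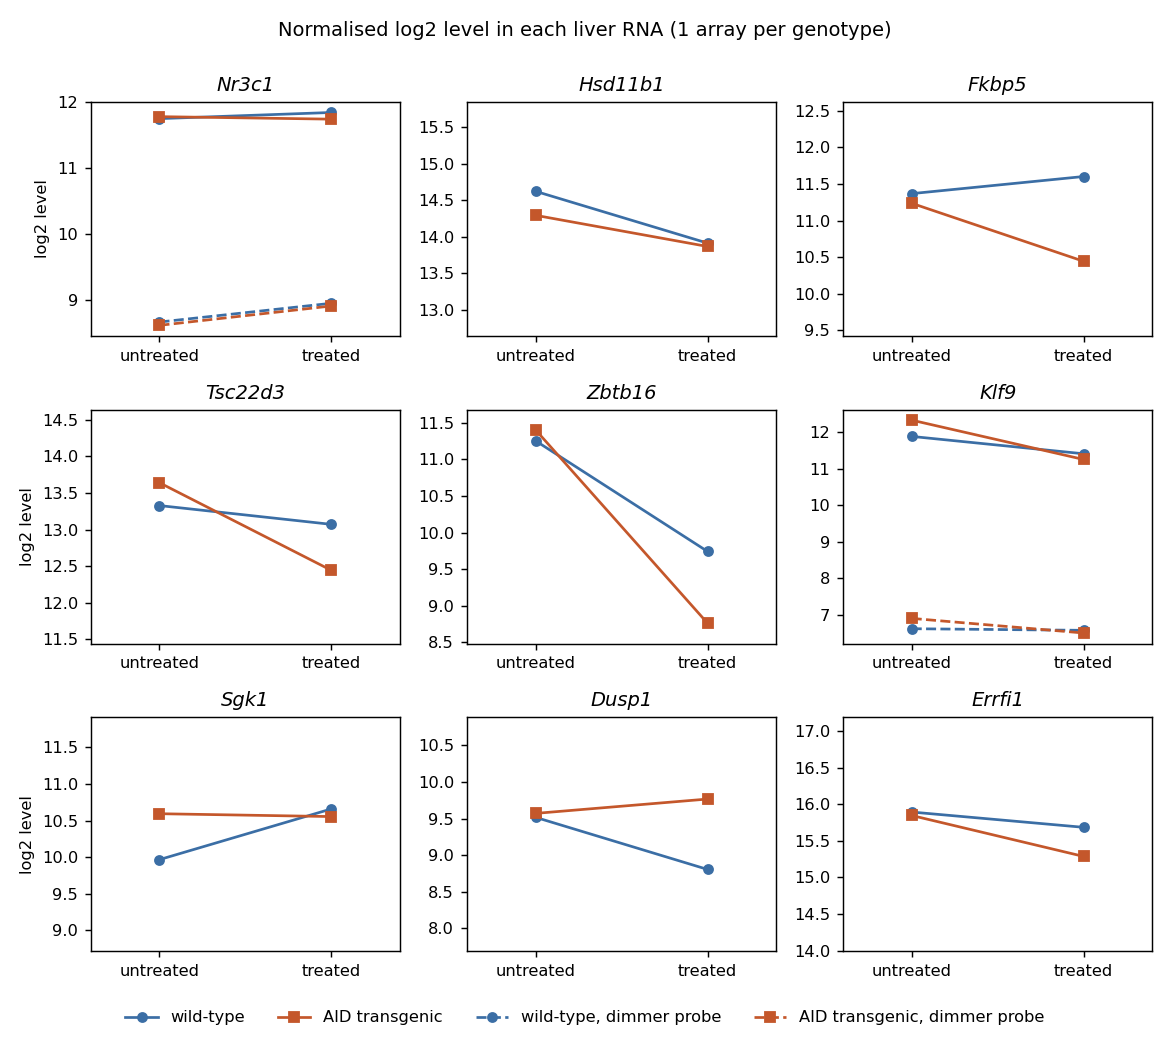
Normalised log2 level (vertical axis) of each probe in untreated and treated liver RNA (horizontal axis), wild-type as circles and AID transgenic as squares, 1 point per RNA, with dashed lines for the dimmer of 2 probes. The vertical axis has its own range in each panel. Zbtb16 was lowest in treated AID transgenic RNA at 8.76, and Sgk1 was lowest in untreated wild-type RNA at 9.97.

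Of 13 measured chaperones and cochaperones that hold the receptor in a hormone-ready state, 0 reached 2-fold on either array. Over all genes 3.5% and 2.16% did. With median centring 2 were 2-fold higher in wild-type liver, where 10.4% of all genes were. The median ratio of the 13 was 0.17 in wild-type and -0.06 in AID transgenic liver, which became 0.84 and 0.56 with median centring. All 13 had a lower ratio on the AID transgenic array, where 50.5% of all genes did, with a median difference of -0.25. Hspa8, the constitutive HSC70 chaperone, had the largest gap, with ratios of 0.07 ± 0.12 and -0.87 ± 0.13 as means of 3 probes, whose SD was 0.27 and 0.44. Of 20 coregulators and partner factors, 0 reached 2-fold in wild-type liver and 1 was lower in AID transgenic liver, where 0.946% of all genes were. That 1 was Cebpb, a transcription factor of the acute phase response that meets the receptor at many liver enhancers, with -0.80 ± 0.22 and -1.13 ± 0.23. Median centring gave -0.055 and -0.41, which is under 2-fold on both arrays.

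Among genes that carry or clear corticosteroids, 3 of 15 measured were 2-fold higher and 2 lower in wild-type liver, and 1 of 16 was higher in AID transgenic liver. Over all genes 1.86% were higher and 1.64% lower in wild-type liver, and 1.21% were higher in AID transgenic liver. These counts became 4 higher and 0 lower, and 3 higher, with median centring. In that setting 10.4% of all genes were higher and 0.612% lower in wild-type liver, and 8.13% were higher in AID transgenic liver. The estrogen sulfotransferase gene Sult1e1 was at least 3.78-fold higher in treated wild-type and at least 3.66-fold higher in treated AID transgenic liver, and was not well above background in untreated liver. Sult2a1, a sulfotransferase gene that is also on the list of female-biased genes, was at least 3.96-fold higher in treated wild-type liver. The glucuronosyltransferase gene Ugt2b1 had -1.26 ± 0.24 and -0.47 ± 0.21. Serpina6, the plasma corticosteroid-binding globulin, had log2 levels of 12.42 and 13.47 in untreated and treated wild-type liver and of 12.84 and 12.48 in untreated and treated AID transgenic liver. The treated wild-type RNA was the highest of the 4, with a ratio of 1.05 ± 0.16 against -0.35 ± 0.15. Srd5a1, a steroid 5-alpha reductase, had -1.30 ± 0.24 and -0.29 ± 0.21. The AID transgenic ratios turned to 0.36 for Serpina6, 0.43 for Srd5a1 and 0.21 for Ugt2b1 with median centring, and the wild-type ratios of Srd5a1 and Ugt2b1 were -0.58 and -0.56, under 2-fold.

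Zbtb16, which encodes the zinc finger repressor PLZF and is a strongly inducible receptor target in many human and mouse cells, had the largest ratios of the 9 genes. Its log2 level was 11.26 in untreated and 9.74 in treated wild-type liver, and 11.40 and 8.76 in untreated and treated AID transgenic liver. Both untreated RNAs were close, both treated RNAs were lower, and the treated AID transgenic RNA was the lowest. The treatment ratio was -1.51 ± 0.25 in wild-type liver, or 2.85-fold lower, and -2.64 ± 0.34 in AID transgenic liver, or 6.24-fold lower. Of 16708 genes measured on the AID transgenic array 2 had a lower ratio, and of 16673 on the wild-type array 0.64% did. The ratio was lower in AID transgenic than in wild-type liver by a log2 difference of -1.13 ± 0.42. The untreated levels differed by 0.15 ± 0.20 and the treated levels by -0.98 ± 0.20. Under median centring Zbtb16 had ratios of -0.84 and -1.98, which is -1.18 and -2.32 relative to the median of all genes in that setting.

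Fkbp5 encodes the FKBP51 cochaperone that closes a negative feedback loop on the receptor. Its log2 level was 11.37 in untreated and 11.60 in treated wild-type liver, and 11.24 and 10.44 in untreated and treated AID transgenic liver. The treated AID transgenic RNA was alone in being low. The treatment ratio was 0.23 ± 0.20 in wild-type liver and -0.79 ± 0.22 in AID transgenic liver, a difference of -1.03 ± 0.30. Median centring gave 0.92 and -0.12, with a difference of -1.04. Between genotypes the treated levels differed by -1.16 ± 0.20 and the untreated levels by -0.13 ± 0.20.

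Tsc22d3 had log2 levels of 13.33 in untreated and 13.07 in treated wild-type liver, and of 13.64 and 12.44 in untreated and treated AID transgenic liver. The AID transgenic RNAs were the highest and the lowest of the 4. Tsc22d3 ratios were -0.26 ± 0.20 in wild-type and -1.20 ± 0.23 in AID transgenic liver, a difference of -0.94 ± 0.31. With median centring the wild-type ratio turned to 0.48, and the AID transgenic ratio was -0.49. The gap between the ratios came from both states, since the AID transgenic level was 0.31 ± 0.20 above wild-type without treatment, and the treated levels differed by -0.63 ± 0.20.

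Klf9 encodes a Krüppel-like repressor that glucocorticoids induce in hepatocytes and many other cells. Its brighter probe had log2 levels of 11.88 in untreated and 11.40 in treated wild-type liver, and of 12.32 and 11.25 in untreated and treated AID transgenic liver. That probe followed the order of Tsc22d3, highest in untreated and lowest in treated AID transgenic liver. Its treatment ratio was -0.47 ± 0.21 in wild-type and -1.07 ± 0.23 in AID transgenic liver. The dimmer probe, with log2 levels from 6.51 to 6.91, had -0.04 ± 0.31 and -0.40 ± 0.30. The scanner's own ratios, to which these errors belong, were -0.095 and -1.09 for the dimmer and -0.475 and -1.10 for the brighter probe. The mean of both probes' normalised ratios was -0.26 ± 0.19 and -0.74 ± 0.19, and the wild-type mean turned to 0.07 with median centring. Relative to the median of all genes in that setting the wild-type mean was -0.28.

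Sgk1, the serum- and glucocorticoid-regulated kinase, phosphorylates FOXO factors and NEDD4L. Its log2 level was 9.97 in untreated and 10.66 in treated wild-type liver, and 10.59 and 10.55 in untreated and treated AID transgenic liver. The untreated wild-type RNA was the low one, and the other 3 lay within a log2 range of 0.11. Treated over untreated, Sgk1 was at 0.69 ± 0.21 in wild-type and -0.04 ± 0.20 in AID transgenic liver, and these became 1.37 and 0.63 with median centring. Between genotypes the untreated levels differed by 0.63 ± 0.20 and the treated levels by -0.11 ± 0.20. The difference between the ratios, -0.73 ± 0.30, thus sat in the untreated RNAs, whereas that of Fkbp5 sat in the treated ones. The window with the receptor palindrome shown above belongs to this gene, whose annotation holds 6 starts.

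Dusp1 encodes a phosphatase that switches off the stress kinases p38 and JNK and carries part of the anti-inflammatory action of glucocorticoids. Its log2 level was 9.52 in untreated and 8.81 in treated wild-type liver, and 9.57 and 9.77 in untreated and treated AID transgenic liver. The treated wild-type RNA was the low one, and treated AID transgenic RNA was the highest. Dusp1 thus had a ratio of -0.71 ± 0.22 in wild-type and 0.20 ± 0.20 in AID transgenic liver. Median centring gave -0.089 and 0.84. The difference of 0.91 ± 0.30 ran opposite to those of Zbtb16, Fkbp5, Tsc22d3, Klf9 and Sgk1.

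Errfi1 encodes MIG6, an inhibitor of the epidermal growth factor receptor that responds both to growth factors and to glucocorticoids. Its log2 level was 15.89 in untreated and 15.69 in treated wild-type liver, and 15.85 and 15.29 in untreated and treated AID transgenic liver. The other 3 RNAs lay within 0.21 of each other, and treated AID transgenic RNA was lower. The treatment ratio was -0.21 ± 0.20 in wild-type and -0.56 ± 0.21 in AID transgenic liver, but both turned above 0 with median centring, to 0.62 and 0.22. Relative to the median of all genes in that setting they were 0.27 and -0.12. Egfr, the target of MIG6, had -1.78 ± 0.15 and -0.97 ± 0.13.

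**Figure D2:**
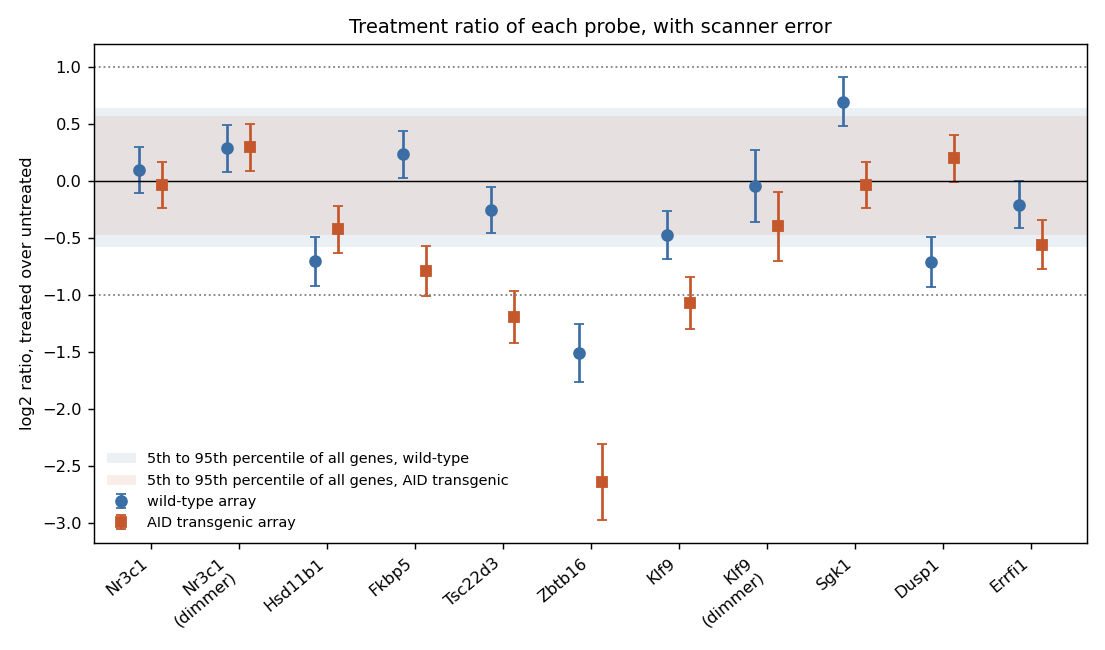
Log2 ratio of treated over untreated RNA (vertical axis) for each of the 11 probes (horizontal axis), with wild-type as circles and AID transgenic as squares. Bars are the scanner error, dotted lines mark 2-fold, and shaded bands hold the 5th to 95th percentile of all measured genes on each array. Zbtb16 lay outside the bands on both arrays, and Fkbp5, Sgk1 and Dusp1 lay on opposite sides of 0 on the arrays.

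Over the 9 genes, 6 had a wild-type ratio below 0 and 1 was 2-fold lower, where 1.64% of all measured genes were 2-fold lower, 1.86% higher and 3.5% either. On the AID transgenic array 7 were below 0 and 2 were 2-fold lower, Zbtb16 and Tsc22d3, where 0.946% of all genes were lower, 1.21% higher and 2.16% either. The genes were chosen with these ratios known, so nothing is read from either count. The median ratio was -0.26 in wild-type and -0.56 in AID transgenic liver, beside medians of 0.03 for all genes on both arrays. With median centring the median of all genes became 0.35 and 0.34, and that of the 9 genes became 0.48 and 0.22. Relative to all genes, the median of the 9 went from -0.29 to 0.13 in wild-type liver, so its side there depends on the scaling. In AID transgenic liver it was -0.59 and -0.12, below all genes in both settings. In the difference of the ratios, which centring hardly moved, 7 of 9 genes were lower in AID transgenic liver and 2 were so by 2-fold, Zbtb16 and Fkbp5, where 1.05% of all genes were lower, 0.929% higher and 1.98% either. The median difference of the 9 genes was -0.48 beside 0.00 for all genes, of which 50.5% were below 0.

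**Figure D3:**
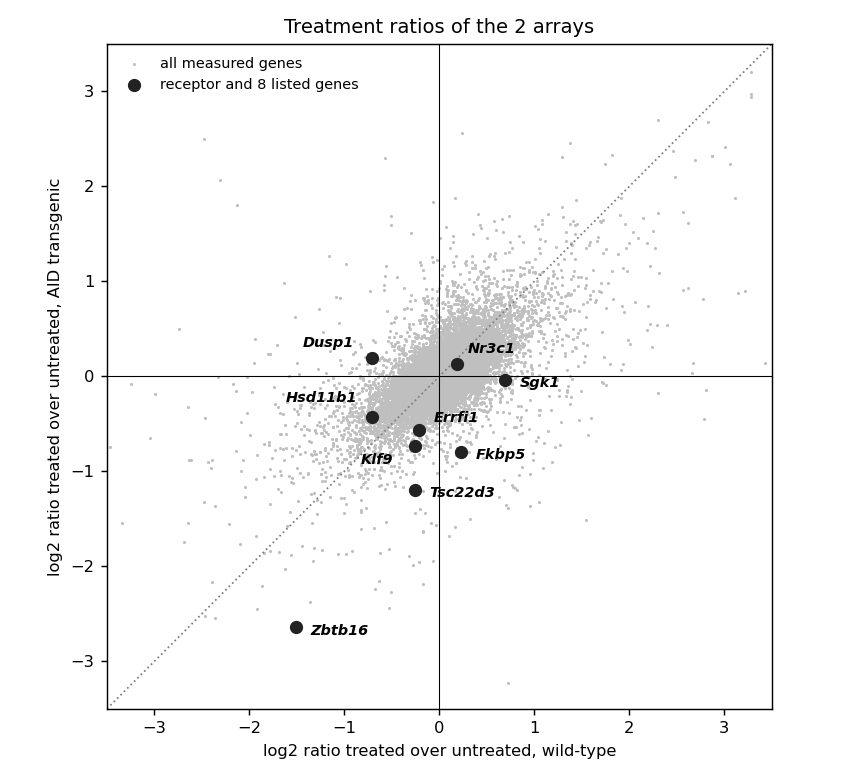
Log2 treatment ratio on the wild-type array (horizontal axis) against that on the AID transgenic array (vertical axis), with all measured genes in grey and the 9 genes in black. The dotted line marks equal ratios, and genes beyond a ratio of 3.5 in size are not drawn. Zbtb16, at -1.51 and -2.64, lay farthest from the origin among the 9, and Dusp1 and Hsd11b1 lay above the line of equal ratios.

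In direct comparison of the genotypes, 0 of the 9 genes reached 2-fold in untreated liver, where 0.601% of all genes did, 0.307% higher and 0.294% lower. The widest gaps there were those of Sgk1 at 0.63, Klf9 at 0.36 and Hsd11b1 at -0.33. In treated liver Fkbp5 was 2-fold lower in the AID transgenic RNA, where 0.761% of all genes were lower, 0.731% higher and 1.49% either, with Zbtb16 at -0.98 and Dusp1 at 0.96 just inside the limit. With 8 of 9 genes below 0 in treated liver, where 51.25% of all genes were, the exception was Dusp1.

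Other textbook targets of the receptor in liver metabolism had medians below 0 on both arrays. Of 33 measured, 3 were 2-fold higher and 10 lower in wild-type liver, and 3 higher and 14 lower in AID transgenic liver, where 1.86% and 1.64%, and 1.21% and 0.946%, of all genes were. These counts became 8 higher and 3 lower, and 6 and 6, with median centring. In that setting the shares of all genes were 10.4% and 0.612%, and 8.13% and 0.317%. The list median was -0.61 and -0.86 and was still below 0 with median centring, at -0.10 and -0.28. Tat, the tyrosine aminotransferase used as the classic receptor target, had log2 levels of 15.26 and 14.11 in untreated and treated wild-type liver and of 15.60 and 14.33 in AID transgenic liver. Its ratios of -1.15 ± 0.23 and -1.27 ± 0.24 were alike on both arrays, and were under 2-fold with median centring, at -0.36 and -0.50. Pck1, the first committed enzyme of gluconeogenesis, had -1.34 ± 0.24 and -1.54 ± 0.26, and the ornithine aminotransferase gene Oat had -2.36 ± 0.30 and -2.54 ± 0.31. With median centring Pck1 was under 2-fold, at -0.50 and -0.75, while Oat stayed 2-fold lower, at -1.63 and -1.83. Glul, the glutamine synthetase of pericentral hepatocytes, had -2.47 ± 0.30 and -2.52 ± 0.31, and Ppp1r3g, a glycogen-targeting phosphatase subunit, had -1.32 ± 0.24 and -1.94 ± 0.28. Pdk4, the kinase that restrains pyruvate oxidation, was the opposite, with 2.48 ± 0.34 and 2.10 ± 0.31. The others 2-fold higher were Cyp2b10 and Igfbp1 in wild-type and Ppp1r3c and Angptl8 in AID transgenic liver. In bulk liver RNA fewer cells of a type and less RNA per cell cannot be told apart.

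Igfbp1, a secreted binding protein for insulin-like growth factors, had log2 levels of 13.94 and 15.21 in untreated and treated wild-type liver and of 15.63 and 14.91 in AID transgenic liver. As with Sgk1, its untreated wild-type RNA was the lowest, and the ratios were 1.27 ± 0.23 and -0.72 ± 0.22, the second of which turned to 0.05 with median centring. Cyp2b10, a drug-metabolizing cytochrome P450 gene, had 2.79 ± 0.34 and -0.45 ± 0.21, the second of which turned to 0.21 with median centring. Lower on both arrays were Got1, an aspartate aminotransferase, with -0.98 ± 0.22 and -1.87 ± 0.27, and Mfsd2a, a lipid transporter that glucocorticoids and fasting induce, with -1.07 ± 0.22 and -1.88 ± 0.27.

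Of 33 targets shared by many cell types, 4 were 2-fold higher and 3 lower in wild-type liver, and 2 higher and 6 lower in AID transgenic liver. Over all genes the shares were 1.86% and 1.64%, and 1.21% and 0.946%. With median centring the counts were 7 higher and 0 lower, and 5 higher and 0 lower. In that setting the shares of all genes were 10.4% and 0.612%, and 8.13% and 0.317%. The medians of -0.07 and -0.31 became 0.46 and 0.10, where those of all genes were 0.35 and 0.34. Relative to all genes the list median went from -0.11 to 0.12 in wild-type liver, so its side there depends on the scaling. In AID transgenic liver it was -0.34 and -0.24, below all genes in both settings. In the difference of the ratios 5 were 2-fold lower and 0 higher in AID transgenic liver, where 1.05% and 0.929% of all genes were. Ddit4, an inhibitor of the growth kinase mTORC1, had log2 levels of 11.30 and 11.39 in untreated and treated wild-type liver and of 12.59 and 10.91 in AID transgenic liver. Its untreated AID transgenic RNA was the highest of the 4, and the ratios were 0.10 ± 0.20 and -1.68 ± 0.26. The metallothionein gene Mt2 had ratios of 0.96 ± 0.22 and -1.36 ± 0.24, and the arrestin-like gene Arrdc2 had -0.17 ± 0.14 and -1.20 ± 0.17, of which the first turned to 0.51 with median centring. Mt1, the other metallothionein gene of the list, had 0.72 ± 0.22 and -1.39 ± 0.24. The transcription factor genes Foxo1 and Cebpd had -1.03 ± 0.16 and -0.92 ± 0.22 in wild-type and -1.28 ± 0.17 and -1.19 ± 0.23 in AID transgenic liver. The growth arrest genes Gadd45a and Gadd45g had 0.53 ± 0.23 and -1.12 ± 0.23 in wild-type and 1.29 ± 0.27 and -0.71 ± 0.21 in AID transgenic liver, and the latter ratio of Gadd45g was 0.001 with median centring. Cdkn1a, the cell cycle inhibitor p21, had 1.67 ± 0.32 and 1.47 ± 0.39 as means of 2 probes that disagreed, with SDs of 2.44 and 1.77. Bcl6, Gadd45b and Cdkn1c were also 2-fold higher in wild-type liver. Per1, a clock gene with receptor sites, had -0.41 ± 0.21 and -0.67 ± 0.21. Within the circadian clock list, to which Per1 also belongs, Arntl had 2.62 ± 0.40 and 1.62 ± 0.28 and Usp2 -1.67 ± 0.26 and -1.04 ± 0.23. The labels do not state the time of day at which livers were taken, and its part in these values was not tested.

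Inflammatory genes that the receptor represses had medians above 0 on both arrays. Of 20 measured in wild-type liver 2 were 2-fold higher and 0 lower, and of 21 in AID transgenic liver 5 were higher and 0 lower, with medians of 0.25 and 0.48 that were 0.55 and 0.84 under median centring. Over all genes 1.86% and 1.21% were higher. The higher counts were 2 and 8 with median centring and 7 and 13 with the scanner's processed signals. The shares of all genes were then 10.4% and 8.13%, and 9.46% and 9.09%. Cxcl10, an interferon-induced chemokine, had 2.30 ± 0.32 and 2.70 ± 0.34. Il1b, the interleukin-1 beta gene, had log2 levels of 7.75 and 7.18 in untreated and treated wild-type liver and of 7.31 and 9.60 in AID transgenic liver. The chemokine genes Ccl2, Ccl5 and Cxcl1 had 1.06 ± 0.26, 0.41 ± 0.21 and 0.11 ± 0.20 in wild-type and 1.30 ± 0.29, 1.71 ± 0.27 and 1.35 ± 0.26 in AID transgenic liver. Of the Il1b levels the treated AID transgenic one alone was high, with a ratio of 2.30 ± 0.37 against -0.57 ± 0.23. Macrophage markers moved with it: 3 of 7 were 2-fold higher in AID transgenic and 0 of 7 in wild-type liver. Their summed linear level was 13637 and 16748 in untreated and treated wild-type and 18567 and 38204 in AID transgenic liver, and 0 of the 7 were at or below background. Stellate cell markers had summed levels of 15419, 19060, 22199 and 12189 in that order, higher in treated than untreated wild-type liver and lower in treated than untreated AID transgenic liver. The part of these cell markers in the values of the receptor's targets was not tested.

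**Figure D4:**
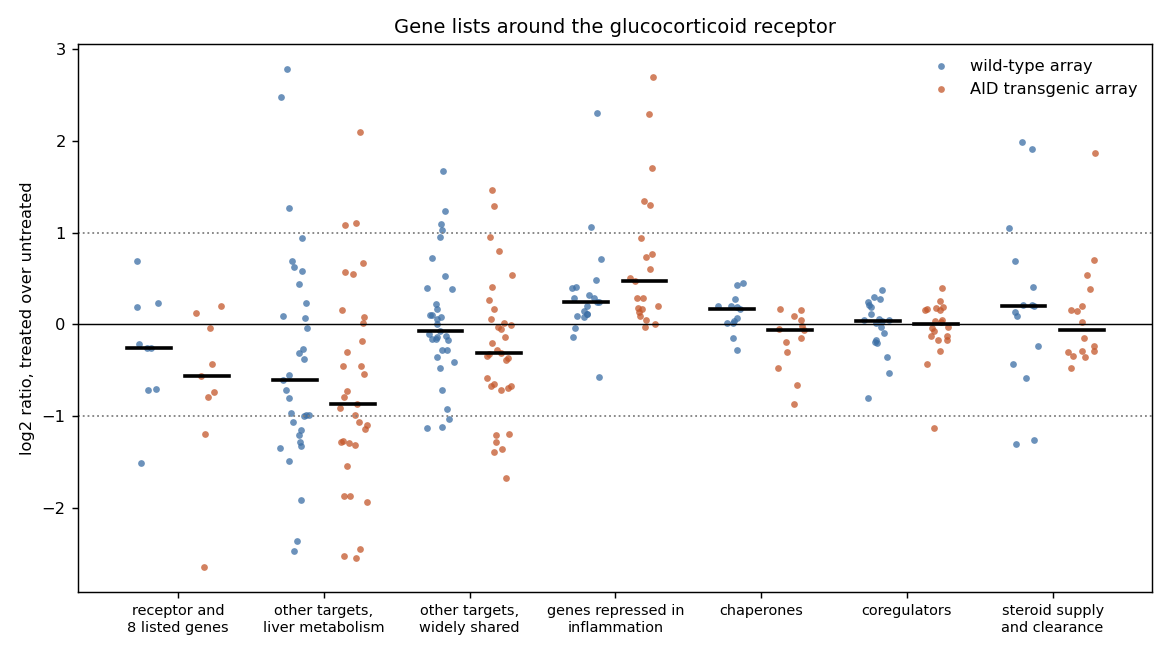
Log2 treatment ratio (vertical axis) of each measured gene in 7 lists (horizontal axis), with the wild-type array in blue and the AID transgenic array in orange. Black bars are list medians and dotted lines mark 2-fold. The metabolic targets had the lowest medians, -0.61 and -0.86, and the repressed inflammatory genes had 0.25 and 0.48.

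Of the immediate early genes, whose transcription answers to stress kinases as that of Dusp1 does, 3 of 25 measured were 2-fold higher in wild-type liver, and 3 were higher and 1 lower in AID transgenic liver. Over all genes 1.86% were higher in wild-type liver, and 1.21% were higher and 0.946% lower in AID transgenic liver. The counts became 6 higher, and 7 higher and 0 lower, with median centring, and 9 and 10 higher with 1 lower on each array with the processed signals. With median centring 10.4% and 8.13% of all genes were higher, and 0.317% were lower in AID transgenic liver. With the processed signals 9.46% and 9.09% were higher, and 3.63% and 2.84% lower. Nr4a1, an orphan nuclear receptor of this class, had log2 levels of 8.63 and 8.87 in untreated and treated wild-type liver and of 9.06 and 11.62 in AID transgenic liver. Like Dusp1, it was highest in treated AID transgenic RNA, and its ratios were 0.23 ± 0.21 and 2.56 ± 0.33. Egr1 had ratios of 1.75 ± 0.29 and 1.34 ± 0.24. The phosphatase gene Dusp6 had 1.41 ± 0.24 and 1.64 ± 0.26, Klf6 had 1.33 ± 0.24 and 0.69 ± 0.21, and Ccn2 had -0.47 ± 0.21 and -1.15 ± 0.24. For Ccn2 the wild-type ratio turned to 0.19 with median centring. In the list of growth factor receptors and MAP kinase feedback, which Errfi1 and Dusp1 serve, 1 of 27 was higher and 1 lower in wild-type liver, and 1 of 28 was higher in AID transgenic liver. Those were Dusp6 on both arrays and, lower, Egfr. With median centring the counts were 4 higher and 1 lower, and 1 higher, where 10.4% and 0.612%, and 8.13%, of all genes were.

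The genes most like Zbtb16 and Tsc22d3 were found by the Euclidean distance between the 4 log2 levels, each gene centred on its own mean, among 13465 genes well above background in all 4 RNAs. Closest to Zbtb16 were the sulfotransferase gene Sult2a8 at a distance of 0.23, the phosphatidate phosphatase gene Lpin1 at 0.36 and Lhpp at 0.56. Sult2a8 had treatment ratios of -1.37 and -2.37, and Lpin1, which is also on the list of metabolic receptor targets, had -1.92 and -2.44 as means of 2 probes that differed on the AID transgenic array, with an SD of 1.25. Closest to Tsc22d3 were Nrn1 at 0.16, the heme synthesis gene Alas1 at 0.19 and Por, the electron donor of microsomal cytochromes P450, at 0.21. Their wild-type ratios were -0.05, -0.39 and -0.35, and their AID transgenic ratios lay between -1.20 and -0.998. The distances rest on 4 RNAs.

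**Figure D5:**
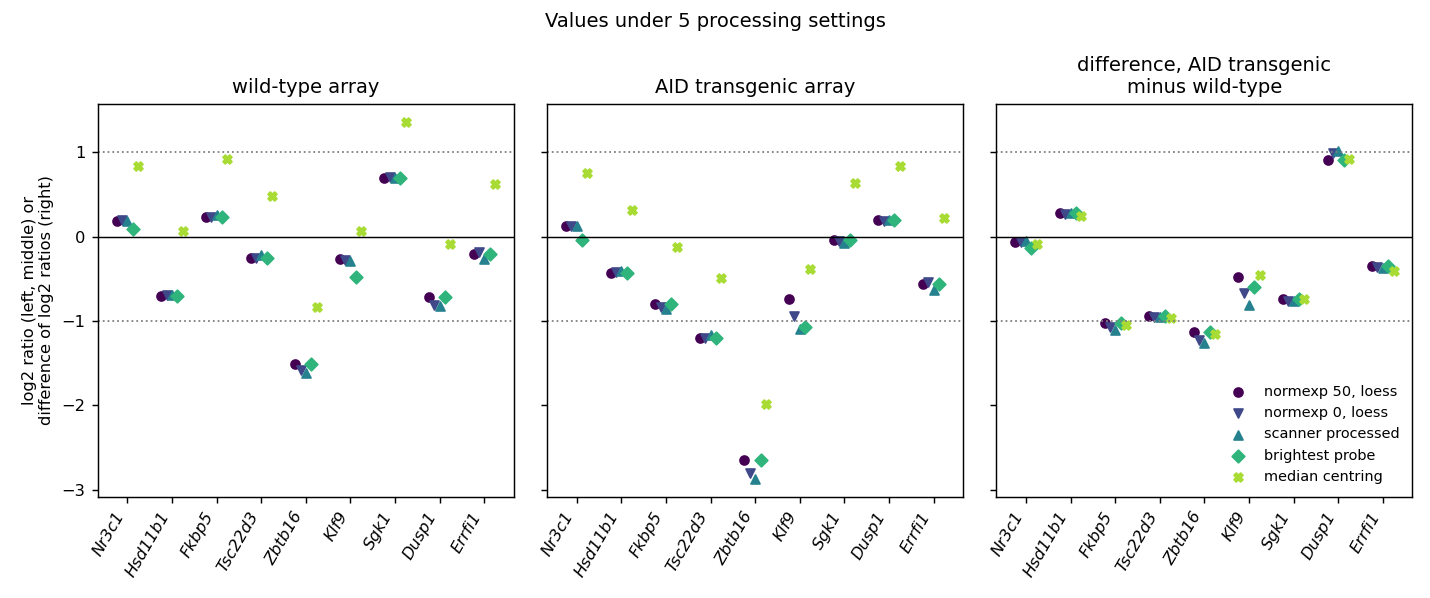
Log2 treatment ratio on each array and the difference of the ratios (vertical axis, 3 panels) for the 9 genes (horizontal axis) under 5 processing settings, 1 symbol per setting. Median centring placed every ratio higher, with Zbtb16 at -0.84 and -1.98, while the differences of the ratios nearly coincided under the settings except for Klf9.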

How the data were processed

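The authors deposited the scanner output of both arrays. Their intensity columns are, per the file headers, the mean signal and median local background of each spot as read and a processed signal with background and dye corrections made. The deposited log ratio is a log10 of red over green processed signal, and its deposited error is a score from the software's error model, shown here in log2 units. The software, Feature Extraction, has version 10.7.3.1 in the file headers, while the submitters' processing notes name 10.5.1.1. The series' deposited table held the same log10 values at 44397 of 44397 spots per array (tolerance 1e-08). Both arrays lay on 1 slide and in 1 scan, so neither could be used as a batch.

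Signals were corrected with normexp (offset 50) and loess within arrays, with weight 0 for control and outlier spots, in R 4.3.3 with limma 3.58.1, and levels were set across arrays by Aquantile. The normalization was tested on simulated data with as many raised as lowered spots and a smooth dye trend. That test does not bear on the choice between loess and median centring. Tables were made in Python 3.11.15 with pandas 2.3.3. Outlier spots (197 wild-type, 207 AID transgenic) were left out. Probes were named by RefSeq accession (26055), symbol (3195) or unique synonym (930), and 9249 had no match. Probes of 1 gene were averaged, and a gene counts as measured with a probe well above background in a channel used. Folds given as "at least" are set against the lowest level well above background and are open to dye bias. Across 399 probes with 10 spots, the SD between spots had a median of 0.0725 log2 units.

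The genes, lists and settings were chosen with earlier results of these data known. Named from each list were members at 2-fold, largest mean ratio first and at most 8, members 2-fold the other way, and always Per1, Tat, Xist and Ddx3y. Of the sex-biased and cell marker lists mainly counts are given. Hspa8, Got1 and Arrdc2 were picked after their values were seen. The 3 genes nearest to each 2-fold gene were named as like patterns.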

Additional observations from a re-analysis of the deposited data

Results flagged for a closer look

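Fkbp5, Sgk1 and Dusp1 had treatment ratios on opposite sides of 0 on the arrays, with differences (AID transgenic minus wild-type, log2) of -1.03, -0.73 and 0.91. Their values in all 4 RNAs are given above. With 1 array per genotype the difference was not tested for these or the genes that follow. With median centring the AID transgenic ratio of Sgk1 turned above 0, so that its ratios were 1.37 and 0.63.

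The same held for 8 genes of the other lists, among those at 2-fold on either array and with the sex-biased and cell marker lists left aside. Genes under 2-fold on both arrays, such as Hspa8, were not flagged even where their ratios had opposite signs. The corticosteroid-binding globulin gene Serpina6 differed by -1.40 and the cytochrome P450 gene Cyp2b10 by -3.24. Igfbp1 differed by -1.99, the metallothionein genes Mt2 and Mt1 by -2.32 and -2.11, Ddit4 by -1.77 and the cell cycle inhibitor gene Cdkn1c by -1.26. Il1b was the exception in direction, at 2.87. With median centring the AID transgenic ratios of Serpina6, Cyp2b10, Igfbp1 and Cdkn1c turned above 0, to 0.36, 0.21, 0.05 and 0.43, where the median of all genes was 0.34. The differences stayed at -1.43, -3.29, -2.01 and -1.36.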

How the results depend on the processing

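No paired analysis was possible because there is 1 array per genotype and no replicate. With median centring the median ratio of the 9 genes became 0.48 in wild-type and 0.22 in AID transgenic liver. The count at 2-fold became 1 on either array, Sgk1 (higher, 1.37) in wild-type and Zbtb16 (lower) in AID transgenic liver. In that setting 10.4% of all genes were higher and 0.612% lower in wild-type liver, and 8.13% and 0.317% in AID transgenic liver. Signs turned for 4 genes in wild-type and 3 in AID transgenic liver, as given above, where the median of all genes was 0.35 and 0.34. The count at 2-fold in treated liver between genotypes was 1, and became 3 with a normexp offset of 0, 3 with the scanner's processed signals and 2 with no normalization between arrays. Over all genes 1.49% reached 2-fold, which became 2.74%, 5.39% and 1.55%. Klf9 passed 2-fold on the AID transgenic array with its brightest probe, the processed signals or the deposited table, which made the count on that array 3. Over all genes 2.48% passed there with the brightest probe and 11.9% with the processed signals, and the share for the deposited table was not counted. Dusp1 passed in the difference with the processed signals, where 4.68% of all genes were 2-fold higher. The brightest probe of Nr3c1 was below 0 in AID transgenic liver, at -0.04.

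Over all genes, the wild-type count of 310 higher and 274 lower became 782 and 406 with offset 0, 1729 and 102 with median centring and 1577 and 606 with the processed signals. The AID transgenic count of 203 and 158 became 620 and 269, 1358 and 53, and 1519 and 474. The higher share of calls was 53.1% in wild-type liver and became 65.8%, 94.4% and 72.2%, and 56.2% in AID transgenic liver became 69.7%, 96.2% and 76.2%. The difference count of 159 and 180 became 376 and 504 with offset 0 and 802 and 944 with the processed signals. For the genotypes, 44 and 42 in untreated liver became 106 and 99, then 215 and 205, and 125 and 130 in treated liver became 238 and 230, then 459 and 462. With no normalization between arrays the higher share fell from 51.2% to 40% in untreated and from 49.0% to 37.0% in treated liver. The cause was not tested. All 11 probes were well above background in all 4 RNAs and 0 were saturated. Precision is limited by having 1 array per genotype.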
